A study of Oryza sativa with 2 samples.

Results

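The HSP90 and HSP70 chaperones examined here are 10 rice loci, 5 assigned to the HSP90 family and 5 to the HSP70 family. They were chosen by their locus identifiers, with earlier results of these data known. Of the 10 loci, 9 were analysed, 4 of HSP90 and 5 of HSP70, out of 38511 loci with a value. The remaining HSP90 locus, LOC_Os09g30439, was not analysed here. Transcript levels came from RNA sequencing of polyadenylated RNA from seedlings of Nipponbare, the japonica cultivar that serves as the rice reference. Both libraries are wild-type whole plants, 3 weeks old, raised in a growth chamber on Yoshida solution, a hydroponic nutrient mix, with 10 h of light at 800 μmol m-2 s-1 and 14 h of dark. They form 1 group of 2 numbered libraries, so the design holds no treatment, no heat exposure and no contrast between groups. The labels state neither the growth temperature nor whether the libraries came from separate plants, and the spread between them may therefore be technical.

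HSP70 proteins bind exposed hydrophobic stretches of unfolded or newly made proteins and release them in cycles of ATP hydrolysis, helped by J-domain co-chaperones and nucleotide exchange factors. HSP90 proteins act as ATP-driven dimers that receive partly folded clients, often from HSP70, and bring kinases, receptors and other regulators to their active form. Plants carry several genes of each family, which serve the cytosol, endoplasmic reticulum, chloroplasts and mitochondria. Some are transcribed at all times, and others mainly after heat or other stress. Which compartment or class each locus belongs to is not given in the sources used here, so each is described by family alone. The family was not checked against sequence, since 0 of the 10 identifiers occurred in the reference gene table.

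Levels are the authors' FPKM values (fragments per kilobase of transcript per 1000000 fragments), which are divided by transcript length and can be compared between loci. The libraries summed to 670155 and 651935 FPKM. The absolute number of fragments behind each value is unknown, so no counting interval is given. Values are means ± SD over 2 libraries. With 1 library on each side, differences between the libraries have no test, and no p-value is given.

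Among the 9 analysed loci, a small number held nearly all the summed transcript of each family, while 3 others were under 1 FPKM. Further family members of the genome were not included. A mean of at least 1 FPKM, taken here as expression, was reached by 6 of the 9 loci, 2 of 4 in HSP90 and 4 of 5 in HSP70, against 49.8% of all loci. The other 3 had means above 0 and under 1 FPKM, as did 18.4% of all loci. At least 10 FPKM was reached by 4 of the 9, against 24.8% of all loci, and at least 100 FPKM by 1, against 2.65%. The median level of the 5 HSP70 loci was 9.01 FPKM and that of the 4 HSP90 loci was 19.0 FPKM, beside 0.979 FPKM over all loci and 9.91 FPKM over expressed loci. The HSP90 median lies midway between loci at 0.283 and 37.8 FPKM and lacks LOC_Os09g30439, so the 2 family medians cannot be ordered. With so few loci, these shares and medians describe the members only.

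**Figure D1:**
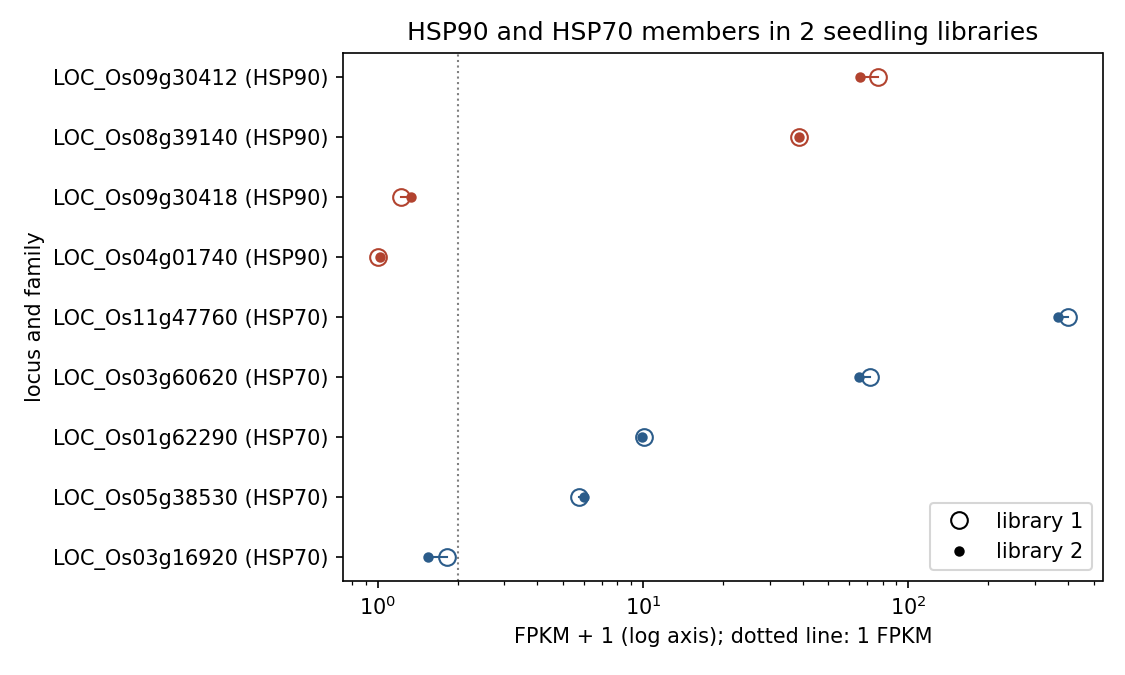
FPKM + 1 of the 9 loci on a log axis, with open circles for library 1, filled circles for library 2 and a dotted line at 1 FPKM. Levels run from 399 and 366 FPKM at LOC_Os11g47760 down to 0 and 0.0177 FPKM at LOC_Os04g01740. The libraries lie close together at each locus on this axis, where differences of low values appear smaller than they are.

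Among the HSP90 loci, LOC_Os09g30412 on chromosome 9 was the highest. Libraries 1 and 2 gave 76.1 and 64.8 FPKM, a mean of 70.4 ± 7.98 FPKM (SD, n = 2). It ranked 1527 of the 38511 loci and lay above 96.0% of them. Its deposited values carry 10 significant digits, where those of the other 8 chaperone loci carry at most 6, as do most values in the files. Values with more digits may be sums over several transcripts of a locus, which was not tested, so the level may not have been formed in the same way as the others. LOC_Os08g39140 on chromosome 8 followed with 37.7 and 37.9 FPKM (37.8 ± 0.114, SD, n = 2), at rank 3094 and above 92.0% of loci. Its libraries were almost level, and they stayed below both libraries of LOC_Os09g30412. The ratio of LOC_Os09g30412 to LOC_Os08g39140, which does not depend on how the libraries are scaled, was 2.02 in library 1 and 1.71 in library 2 (1.86 ± 0.22, SD, n = 2).

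The 2 other HSP90 loci lay below the threshold of expression in both libraries. LOC_Os09g30418, also on chromosome 9, had 0.229 and 0.338 FPKM (0.283 ± 0.0772, SD, n = 2) and lay above 41.5% of all loci. LOC_Os09g30412 exceeded it by 332-fold in library 1 and 192-fold in library 2. These chromosome 9 loci are thus close in locus number and far apart in level. The size of the fold is uncertain, because it rests on values of LOC_Os09g30418 under 1 FPKM. LOC_Os04g01740 on chromosome 4 was listed at 0 in library 1 and at 0.0177 FPKM in library 2. Values this low often appeared in 1 library only. Of the 1072 loci with a mean above 0 and under 0.05 FPKM, 850 (79.3%) were listed at 0 in 1 library, so no fold is given for this locus.

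Summed over the 4 loci, HSP90 transcript came to 114 and 103 FPKM in libraries 1 and 2 (109 ± 7.78, SD, n = 2). LOC_Os09g30412 held 66.7% and 62.9% of that sum. LOC_Os09g30412 and LOC_Os08g39140 together held 99.8% and 99.7%. The 2 analysed chromosome 9 loci held 66.9% and 63.2%, nearly all of it from LOC_Os09g30412. LOC_Os09g30439 is missing from these sums and shares, so they do not cover all 5 HSP90 loci.

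The HSP70 loci were led by LOC_Os11g47760 on chromosome 11, the highest of the 9 loci. Libraries 1 and 2 gave 399 and 366 FPKM (382 ± 23.4, SD, n = 2). By its mean it ranked 170, and it lay above 99.6% of all loci. LOC_Os03g60620 on chromosome 3 came next in the family with 71.0 and 63.9 FPKM (67.5 ± 4.99, SD, n = 2), at rank 1601. The libraries of these loci were far from overlapping. LOC_Os11g47760 exceeded LOC_Os03g60620 by 5.62-fold in library 1 and 5.72-fold in library 2 (5.67 ± 0.0734, SD, n = 2).

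A middle tier of HSP70 loci was present at moderate levels. LOC_Os01g62290 on chromosome 1 had 9.11 and 8.91 FPKM (9.01 ± 0.138, SD, n = 2), above 73.7% of all loci and 47.1% of expressed loci. LOC_Os05g38530 on chromosome 5 had 4.75 and 5.004 FPKM (4.88 ± 0.177, SD, n = 2), above 65.1% of all loci and 30.0% of expressed loci. Both were thus below the median expressed locus, and their libraries did not overlap. LOC_Os11g47760 exceeded LOC_Os01g62290 by 43.8-fold and 41.1-fold, and LOC_Os05g38530 by 83.9-fold and 73.1-fold, in libraries 1 and 2.

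LOC_Os03g16920 on chromosome 3 was the lowest HSP70 locus, with 0.830 and 0.549 FPKM (0.689 ± 0.199, SD, n = 2). Both libraries were under 1 FPKM. When each library was brought to a sum of 1000000, however, the mean of LOC_Os03g16920 was 1.04 and it passed the threshold. This made 7 of 9 loci expressed, against 53% of all loci, because that scaling raises every value above 0. LOC_Os03g16920 shares chromosome 3 with LOC_Os03g60620, which was 85.5-fold higher in library 1 and 116-fold higher in library 2. The size of this fold is uncertain too, because it rests on values under 1 FPKM. Unlike LOC_Os04g01740, the lowest HSP90 locus, LOC_Os03g16920 had a value above 0 in each library.

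Summed HSP70 transcript was 485 and 444 FPKM in libraries 1 and 2 (464 ± 28.5, SD, n = 2). LOC_Os11g47760 alone held 82.3% and 82.4% of it (82.3% ± 0.0249, SD, n = 2), and with LOC_Os03g60620 the share was 97.0% and 96.7%. Its share of the HSP70 sum was higher than the share of LOC_Os09g30412 in the HSP90 sum in each library. The summed HSP70 level was 4.25 times the summed HSP90 level in library 1 and 4.31 times in library 2 (4.28 ± 0.0440, SD, n = 2). Without the highest locus of each family the ratio was 2.26 and 2.05 (2.15 ± 0.147, SD, n = 2). HSP70 was thus still the higher sum of the analysed loci, by less. The HSP90 sums lack LOC_Os09g30439, whose level is unknown here, so neither ratio covers the full set of HSP90 loci. All 9 loci together held 0.0893% and 0.0840% of the summed FPKM of the libraries.

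**Figure D2:**
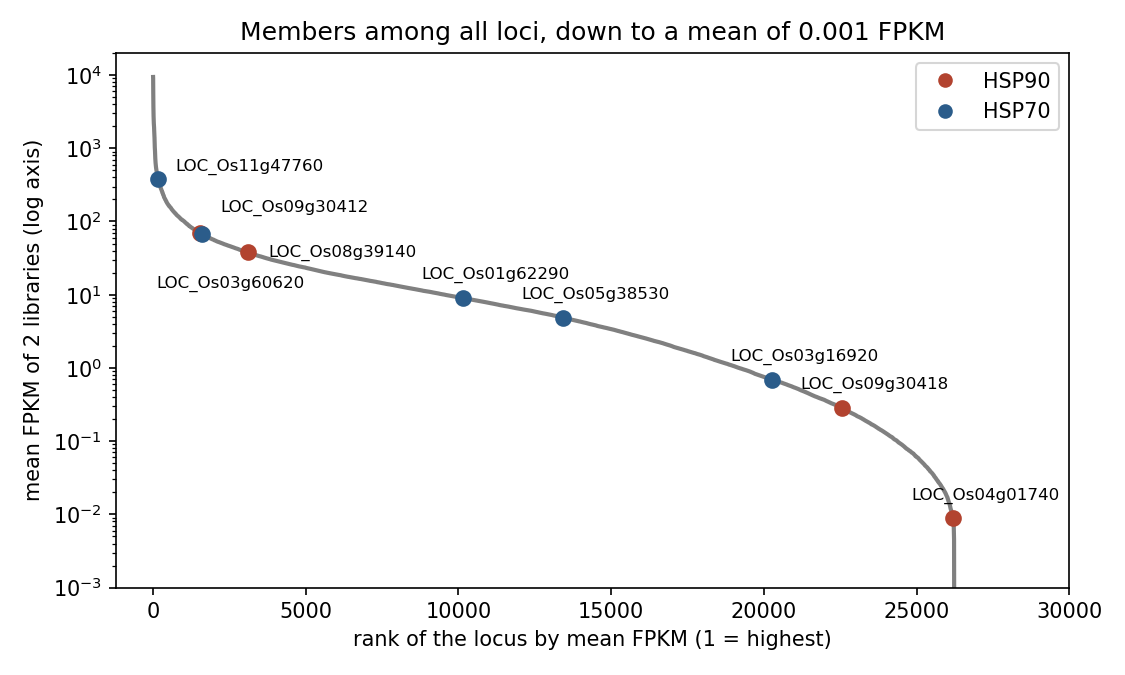
Mean FPKM of 2 libraries (log axis) against rank for all loci, drawn as a grey line and cut at 0.001 FPKM, with HSP90 loci in red and HSP70 loci in blue. LOC_Os11g47760 sits at rank 170 and LOC_Os04g01740 at rank 26193, and both families have loci in the upper and the lower part of the line.

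Ordered by level, the 9 loci ran LOC_Os11g47760, LOC_Os09g30412, LOC_Os03g60620, LOC_Os08g39140, LOC_Os01g62290, LOC_Os05g38530, LOC_Os03g16920, LOC_Os09g30418 and LOC_Os04g01740. The order was the same in both libraries for all 36 pairs of loci. Of neighbours in this order, LOC_Os09g30412 (HSP90) and LOC_Os03g60620 (HSP70) were nearly level. The former was 1.07 times the latter in library 1 and 1.01 times in library 2 (1.04 ± 0.041, SD, n = 2). Both loci were lower in library 2. Their means were 2.97 FPKM apart and their libraries overlapped. That gap was less than the SD of 7.98 FPKM of LOC_Os09g30412, which includes the fall that both loci shared. In the other 35 pairs the libraries did not overlap. The means of the 9 loci ran from 0.00887 to 382 FPKM, a range far wider than the differences between the libraries. Pairs of other loci were not counted, so these numbers of pairs have no background beside them. The families were interleaved, with HSP70 loci above, between and below the 2 expressed HSP90 loci.

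The expressed chaperone loci were compared between the libraries. Among the 6 expressed members, 0 exceeded a 2-fold rise in library 2, which 3.26% of the 19187 expressed loci of the genome reached, and 0 showed a 2-fold excess in library 1, which 3.49% reached. In either direction the background share was 6.75%. All 6 lay within 1.5-fold, as did 83.5% of expressed loci. With 6 loci, these counts are near the background and show nothing particular to the chaperones. The 3 loci under 1 FPKM were outside this count. LOC_Os03g16920 was 1.51-fold higher in library 1, LOC_Os09g30418 was 1.48-fold higher in library 2, and LOC_Os04g01740 was above 0 in library 2 alone. Ratios were taken as log2(FPKM + 1), where differences of low values appear smaller than they are. The ratio of library 2 to library 1 was -0.23 at LOC_Os09g30412, -0.15 at LOC_Os03g60620 and -0.12 at LOC_Os11g47760. It was 0.01 at LOC_Os08g39140, -0.03 at LOC_Os01g62290 and 0.06 at LOC_Os05g38530. The 3 loci with the highest levels were thus slightly lower in library 2, and the others were nearly level. The SD of this ratio over all expressed loci was 0.58, larger than each of the values.

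Compared with loci of like level, LOC_Os08g39140 was among the closest in agreement under the deposited scaling. Of the 8530 loci at 10 to 100 FPKM, 98.8% had a larger absolute log2 ratio than it, while 47.7% had a larger one than LOC_Os09g30412 and 63.4% than LOC_Os03g60620. Of the 961 loci at 100 to 1000 FPKM, 78.7% had a larger one than LOC_Os11g47760. Loci in that band had a median log2 ratio of -0.11, close to the -0.12 of LOC_Os11g47760. Of the 9636 loci at 1 to 10 FPKM, 93.2% had a larger absolute ratio than LOC_Os01g62290 and 86.0% than LOC_Os05g38530. These percentages were not recomputed under other scalings. The ratio of LOC_Os08g39140, 0.006 here, was 0.0452 when each library was brought to the same sum. It was -0.0209 when the median ratio of expressed loci was set to 1.

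The direction of some of these small differences depended on scaling. Of the 6 expressed loci, 4 were higher in library 1, against 47.1% of all expressed loci. The number was 3 when each library was brought to the same sum, and 5 when the median ratio of expressed loci was set to 1. The share of all expressed loci was not computed under these other scalings. LOC_Os01g62290 changed from -0.0282 to 0.0079 with the common sum, and LOC_Os08g39140 from 0.006 to -0.0209 with the median ratio. The median log2 ratio of the 6 was -0.08, beside 0.02 over all expressed loci. LOC_Os11g47760, LOC_Os09g30412 and LOC_Os03g60620 were lower in library 2 under each of these scalings.

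**Figure D3:**
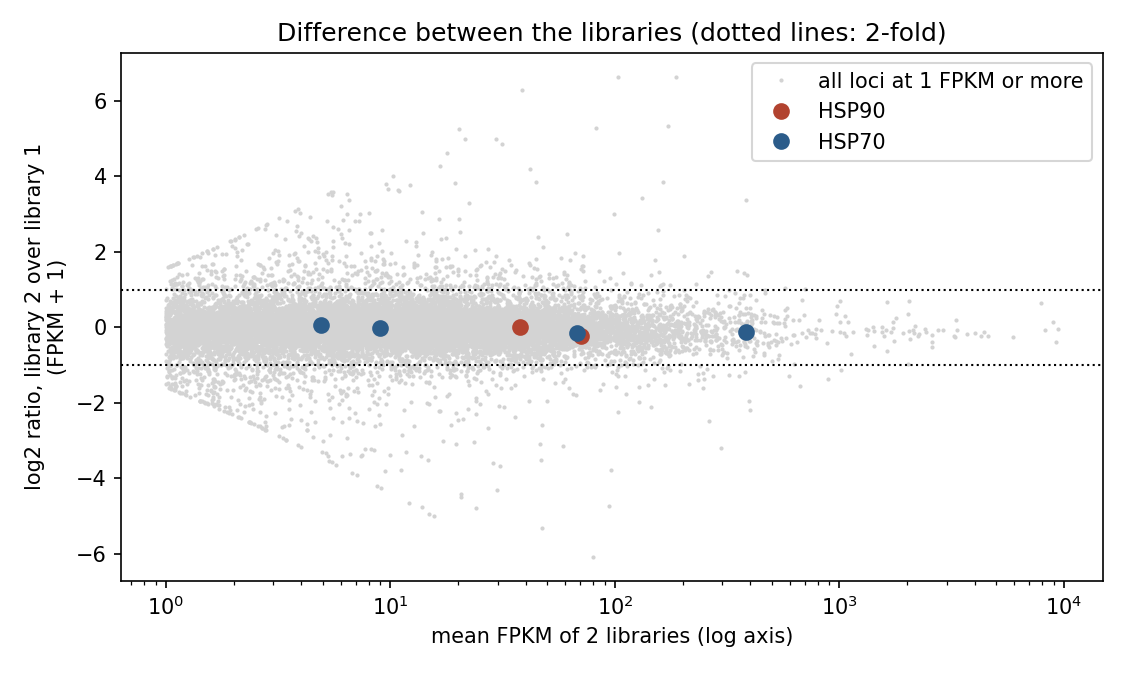
Log2 ratio of library 2 over library 1 of FPKM + 1 against mean FPKM (log axis) for 19187 expressed loci in grey, with expressed HSP90 loci in red, HSP70 loci in blue and dotted lines at a 2-fold difference. The 6 chaperone loci lie between -0.23 and 0.06, well inside the dotted lines.

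Levels of the chaperone loci were set beside those of their neighbours, ordered by locus number, which increases along a chromosome in the rice naming convention. Positions were not checked against a genome, and no coordinates are given because the build is not given in the sources used here. The nearest 10 loci on each side were taken. LOC_Os11g47760 and LOC_Os08g39140 were higher than all 20 of their neighbours. They lay above 99.6% and 92.0% of all loci, in that order. The share of all loci that top their neighbours was not computed, so this describes these loci only. The neighbours of LOC_Os11g47760 had a median of 0.851 FPKM, with 8 of 20 expressed, where 49.8% of all loci were. The adjoining LOC_Os11g47750 was listed at 0 and 0.0556 FPKM, and LOC_Os11g47770 had 1.01 and 0.791 FPKM. The highest neighbour, LOC_Os11g47809, reached 348 ± 6.91 FPKM (SD, n = 2), below the 382 FPKM of LOC_Os11g47760. The neighbours of LOC_Os08g39140 had a median of 1.31 FPKM. They included LOC_Os08g39130 beside it, at 0.137 and 0.167 FPKM, and LOC_Os08g39150, at 7.68 and 7.99 FPKM.

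The chromosome 9 stretch placed high and low loci side by side. Between LOC_Os09g30412 and LOC_Os09g30418 lay 3 loci with values. LOC_Os09g30414 was listed at 0 in both libraries, LOC_Os09g30415 had 14.7 and 17.2 FPKM, and LOC_Os09g30416 had 17.8 and 11.4 FPKM. On the outer sides, LOC_Os09g30411 had 1.27 and 1.75 FPKM and LOC_Os09g30438 had 0.113 and 0.211 FPKM. LOC_Os09g30412 thus stood above all loci adjoining it, and LOC_Os09g30418 was far below LOC_Os09g30416 and slightly above LOC_Os09g30438. Among the 20 neighbours of LOC_Os09g30412, 2 were higher, and the highest of them was LOC_Os09g30340 at 2738 ± 96.1 FPKM (SD, n = 2).

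The other chaperone loci were not the highest of their surroundings. Of 20 neighbours, 2 were higher than LOC_Os03g60620, 8 than LOC_Os01g62290, 9 than LOC_Os05g38530, 12 than LOC_Os03g16920, 12 than LOC_Os04g01740 and 15 than LOC_Os09g30418. LOC_Os05g38530 at 4.88 FPKM adjoined LOC_Os05g38520, with 292 and 249 FPKM, and LOC_Os05g38550, with 86.0 and 93.5 FPKM. LOC_Os03g16920 at 0.689 FPKM adjoined LOC_Os03g16910, with 58.0 and 81.1 FPKM, and LOC_Os03g16940, with 0.521 and 0.246 FPKM. LOC_Os03g60620 lay between LOC_Os03g60610, with 7.87 and 11.9 FPKM, and LOC_Os03g60630, with 2.92 and 3.45 FPKM. LOC_Os01g62290 lay between LOC_Os01g62280, listed at 0 in both libraries, and LOC_Os01g62300, with 11.6 and 12.8 FPKM. Both loci beside LOC_Os04g01740, LOC_Os04g01730 and LOC_Os04g01750, were listed at 0 in both libraries, and 6 of its 20 neighbours were expressed, where 49.8% of all loci were. Apart from this locus and LOC_Os11g47760, the share of expressed neighbours was above 49.8%. It was 12 of 20 for LOC_Os08g39140, LOC_Os09g30412 and LOC_Os03g16920. It was 14 of 20 for LOC_Os09g30418, LOC_Os05g38530 and LOC_Os01g62290, and 15 of 20 for LOC_Os03g60620. Median neighbour levels ran from 0.0721 FPKM for LOC_Os04g01740 to 10.9 FPKM for LOC_Os03g60620.

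**Figure D4:**
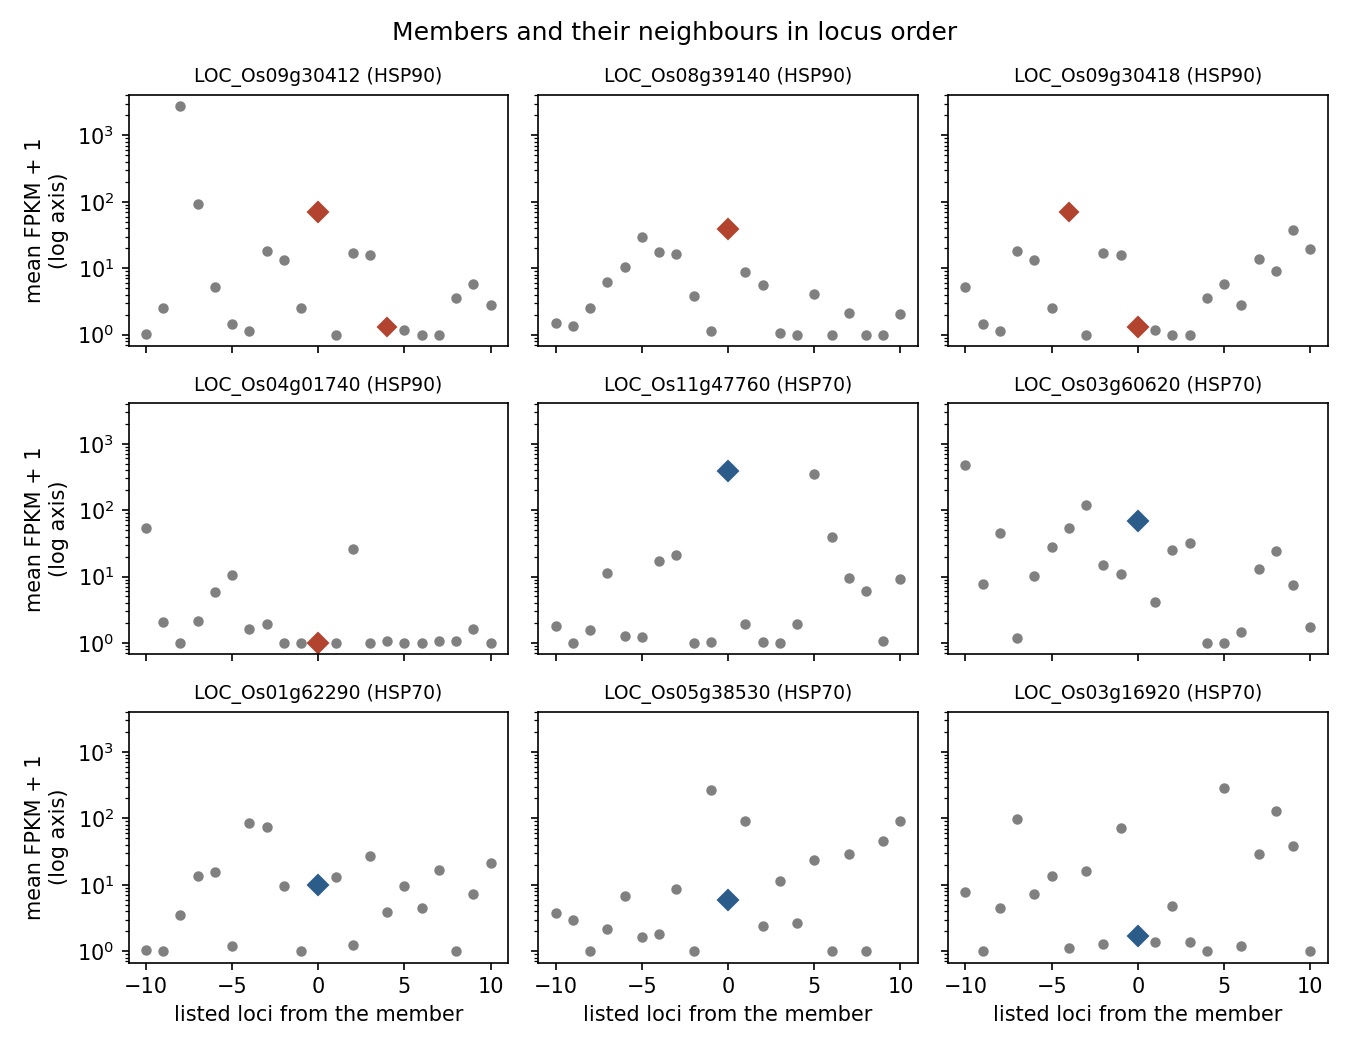
Mean FPKM + 1 (log axis) of each chaperone locus, at position 0, and of the 10 loci with values on each side in order of locus number, in grey. Diamonds mark HSP90 loci in red and HSP70 loci in blue. LOC_Os11g47760 and LOC_Os08g39140 are the highest points of their panels, and LOC_Os09g30412 and LOC_Os09g30418 appear in each other's panels.

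HSP70 and HSP90 proteins are strongly conserved, and close copies can share sequencing reads. How the authors' software divided such reads among family members is not given in the sources used here, so levels of single loci and of the family sums are uncertain to that extent. Whether counting used strand is not given either. If it did not, reads of overlapping loci on opposite strands could not be told apart. The part of either in these levels was not tested.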

How the data were processed

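Polyadenylated RNA of 2 wild-type Nipponbare seedling libraries was sequenced on an Illumina HiSeq instrument after NEBNext Ultra library preparation, per the labels' protocols. The authors deposited FPKM values, 1 for each locus in each library, per the file headers, and made the values with Cufflinks, per the submitters' processing notes. The version, aligner, genome build, annotation and strand setting are unknown, being not given in the sources used here. Because FPKM values are not counts, no count model was used. The absolute depth is unknown. The commonest ratio of 940 loci at 0.001 to 0.5 FPKM gave a depth of library 2 that was 1.08 times that of library 1.

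Loci were selected by identifier. The members were chosen with earlier results of these data known. Means, SDs, ranks, shares and log2(FPKM + 1) ratios were computed with pandas 2.3.3 and numpy 2.4.6 in Python 3.11.15. Expression was set at a mean of 1 FPKM and a difference at 2-fold. Scaling and 2-fold calls were checked on simulated libraries with planted changes larger than 2-fold and less spread than in these data. That check therefore does not show how reliable 2-fold calls are here. Named loci were all members, the nearest locus on each side, the loci between the chromosome 9 members, the highest of the 20 neighbours of some members, and the locus closest in both libraries to the highest of each family. The highest neighbours were added after their values were seen. Of 40 reference genes with chaperone names (assembly ASM3414082v1), 0 matched an identifier, so no wider chaperone list was described, and whole-plant identity was not checked with marker genes. No protein or promoter sequence was used here.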

Additional observations from a re-analysis of the deposited data

How the results depend on the processing

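The ratios between chaperone loci within a library and the shares within a family do not depend on scaling. Rescaling the libraries to a common sum raised the summed level to 164 for HSP90 and 702 for HSP70, because the deposited values sum to less than 1000000. Leaving out the highest locus lowered the sums of the analysed loci to 38.1 FPKM for HSP90 and 82.0 FPKM for HSP70. It lowered the HSP70 to HSP90 ratio, which lacks LOC_Os09g30439, to 2.15. The number of expressed chaperone loci was 6 with either library alone and with median-ratio scaling, 7 with a common sum, and 8, 5 and 4 at thresholds of 0.1, 5 and 10 FPKM. The share of all loci was 49.8% with library 1 alone, 49.1% with library 2 alone and 49.7% with median-ratio scaling. In the last 4 settings it was 53%, 63.3%, 34.5% and 24.8%. The number 2-fold apart was 0 under both scalings, with pseudocounts of 0.1 and 5 and with a filter at 5 FPKM. A higher filter or a larger pseudocount can only lower such a number, so neither setting of 5 could change a 0. The ratios were also far from 2-fold under the others. At LOC_Os09g30412, the widest of the 6, the log2 ratio was -0.26 with median-ratio scaling and -0.23 with a pseudocount of 0.1. The number 2-fold apart was also 0 with no filter, but loci under 1 FPKM in both libraries cannot reach 2-fold on FPKM + 1. That setting could therefore not change it either. Shares of all loci 2-fold apart were not computed under these settings, so these counts have no background beside them. The median log2 ratio of the 9 loci was -0.03, and changed sign to 0.01 with a common sum. No paired analysis was possible because the labels hold a single group. Since depth is unknown, the 3 chaperone loci under 1 FPKM carry the least certain values.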

Other observations

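The locus closest in level to LOC_Os11g47760 over both libraries was LOC_Os01g36950, with 411 and 377 FPKM, at a distance of 0.0621 on the log2(FPKM + 1) scale. The locus closest to LOC_Os09g30412 was LOC_Os03g25940, with 75.0 and 65.4 FPKM, at a distance of 0.0244. Likeness over 2 libraries of 1 group reflects level and little else. Neither locus was paired with a gene name.

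Over all loci, 25.6% of the values above 0 in library 1 and 25.8% in library 2 carried more than 6 significant digits, as did those of LOC_Os09g30412.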
